A study of Mus musculus with 16 samples.

Results

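Expression of 7 genes that produce hydrogen peroxide, superoxide or nitric oxide in the intestinal epithelium was followed across 16 cultures of mouse small intestinal organoids. The genes were chosen by name, with earlier results of these data known. The list holds the dual oxidase Duox2 and its maturation factor Duoxa2, and the inducible nitric oxide synthase Nos2. It also holds the NADPH oxidase Nox1 with its organizer Noxo1, its activator Noxa1 and its membrane partner Cyba. These are 7 of the 49585 genes in the table, and all 7 passed the filter on low counts that left 12559 genes for testing. The organoids came from Atg16l1 ΔIEC mice, in which a Cre driven by the villin promoter deletes floxed Atg16l1 in intestinal epithelial cells, and from Cre-negative Atg16l1 fl/fl mice, which carry the same floxed alleles. The mice of the study were 8 to 12 weeks old. Cultures of each genotype were left untreated or received recombinant murine IL-22 at 10 ng/ml, for 24 h, with 4 cultures for each of the 4 groups. Each genotype is represented by 2 numbered organoids in the labels (here called lines), each cultured in duplicate per treatment. Replicates 1 and 2 belong to the lower-numbered line and replicates 3 and 4 to the other, called the first and the second line. The 4 cultures of a group are therefore not 4 independent lines, p-values measure the spread between these cultures, and genotype cannot be told apart from line or from the presence of Cre.

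NADPH oxidases are membrane enzymes that pass electrons from NADPH to oxygen. DUOX2 releases hydrogen peroxide at the apical surface of the gut epithelium and needs DUOXA2 to leave the endoplasmic reticulum, whereas NOX1 makes superoxide and needs the membrane protein p22phox (Cyba), the organizer NOXO1, the activator NOXA1 and the small GTPase RAC1. Inducible nitric oxide synthase makes nitric oxide from arginine and requires the cofactor tetrahydrobiopterin. IL-22 is a cytokine of lymphoid cells that acts on epithelial cells through STAT3, and Duox2, Duoxa2 and Nos2 are known as genes of the epithelial response to microbes.

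The reads counted on genes ranged from 2135000 to 5574860 per culture, with a median of 3499276. Atg16l1 itself was at 40.2 ± 7.24 and 45.0 ± 6.33 CPM (counts per 1000000, scaled by TMM; mean ± SD, n = 4 here and for all group means) in untreated and IL-22–treated fl/fl organoids and at 2.67 ± 1.20 and 1.84 ± 2.76 CPM in the ΔIEC organoids, with the groups apart in both treatments. All 7 epithelial markers examined (Epcam, Vil1, Cdh1, Krt8, Krt18, Krt20 and Cdx2) were tested, and their summed level was 5760 to 10600 CPM. Of 9 immune cell markers, 6 had at most 3 counts in every culture, among them Ptprc, Adgre1 and S100a9, and Cd3e and S100a8 had 0 counts in all 16 cultures. The others reached higher counts, with 20 to 58 per culture for Csf1r, 1 to 24 for Cd68 and 0 to 17 for Itgam. A count of 0 allows up to 3 counts per culture, and this limit covers counting error only.

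Duox2 (ENSMUSG00000068452) and Duoxa2 (ENSMUSG00000027225) lie head to head on mouse chromosome 2 (GRCm38), Duox2 on the minus strand at chr2:122279247-122298449 and Duoxa2 on the plus strand at chr2:122298900-122302885, with 450 bases between their starts. Nox1 (ENSMUSG00000031257) is on the minus strand at chrX:134086421-134221956, Noxo1 (ENSMUSG00000019320) on the plus strand at chr17:24696234-24700529, Noxa1 (ENSMUSG00000036805) on the minus strand at chr2:25085667-25095149, Cyba (ENSMUSG00000006519) on the minus strand at chr8:122424776-122432930, and Nos2 (ENSMUSG00000020826) on the plus strand at chr11:78920787-78960254. Promoter windows from RefSeq (GRCm38.p6) were at hand for 6 of the 7 genes. The 250 bases upstream of 2 start sites are shown, because Duoxa2 was the gene with the highest IL-22 effect in both genotypes and Nox1 the gene with the highest effect of genotype in both treatments. The Duoxa2 window lies in the intergenic space shared with Duox2, at chr2:122298650-122298899 on the plus strand, and the Nox1 window lies in an intron of the longest Nox1 gene model, at chrX:134111855-134112104 on the minus strand. Both are written 5′ to 3′, and capitals mark matches to the motifs searched on both strands: the TATA box TATAAA, the GC box GGGCGG, the STAT site TTCNNNGAA and the interferon-stimulated response element.
Duoxa2: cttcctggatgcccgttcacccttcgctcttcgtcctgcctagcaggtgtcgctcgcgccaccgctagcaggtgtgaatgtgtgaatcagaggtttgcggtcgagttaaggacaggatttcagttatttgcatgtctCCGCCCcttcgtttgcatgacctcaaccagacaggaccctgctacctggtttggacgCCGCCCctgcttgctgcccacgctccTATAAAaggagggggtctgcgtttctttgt
Nox1: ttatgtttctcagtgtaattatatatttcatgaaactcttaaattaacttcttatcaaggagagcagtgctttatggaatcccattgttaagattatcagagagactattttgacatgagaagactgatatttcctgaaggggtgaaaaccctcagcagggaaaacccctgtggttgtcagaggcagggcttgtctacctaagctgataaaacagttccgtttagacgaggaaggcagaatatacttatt

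The Duoxa2 window held TATAAA at bases -30 to -25 before the start site and the GC box on the minus strand at -113 to -108 and -56 to -51. The Nox1 window held no match to any of the 4 motifs. Over the same 250 bases of 32851 RefSeq promoters, TATAAA was found in 12.4%, GGGCGG in 32.7%, TTCNNNGAA in 7.02% and the interferon-stimulated response element in 2.98%. A match is a stretch of letters and not a measured binding site.

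IL-22 raised 4 of the 7 genes in fl/fl organoids, namely Duox2, Duoxa2, Nos2 and Noxo1, and the same 4 in ΔIEC organoids. The dual oxidase pair changed most, 11.0-fold and 11.4-fold in fl/fl and 21.3-fold and 26.3-fold in ΔIEC organoids. Nos2 rose 5.48-fold and 5.53-fold, and Noxo1 1.80-fold and 1.60-fold. Nox1, Noxa1 and Cyba did not pass the threshold with IL-22 in either genotype. The threshold was an adjusted p of 0.01 in edgeR's quasi-likelihood test, with Benjamini-Hochberg adjustment over all 12559 tested genes. Among all tested genes 10.6% were called higher with IL-22 in fl/fl and 9.83% in ΔIEC organoids. Treated and untreated groups did not overlap for all 4 of these genes in fl/fl and for 3 of them in ΔIEC organoids, beside 30.9% and 27.3% of all tested genes.

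**Figure D1:**
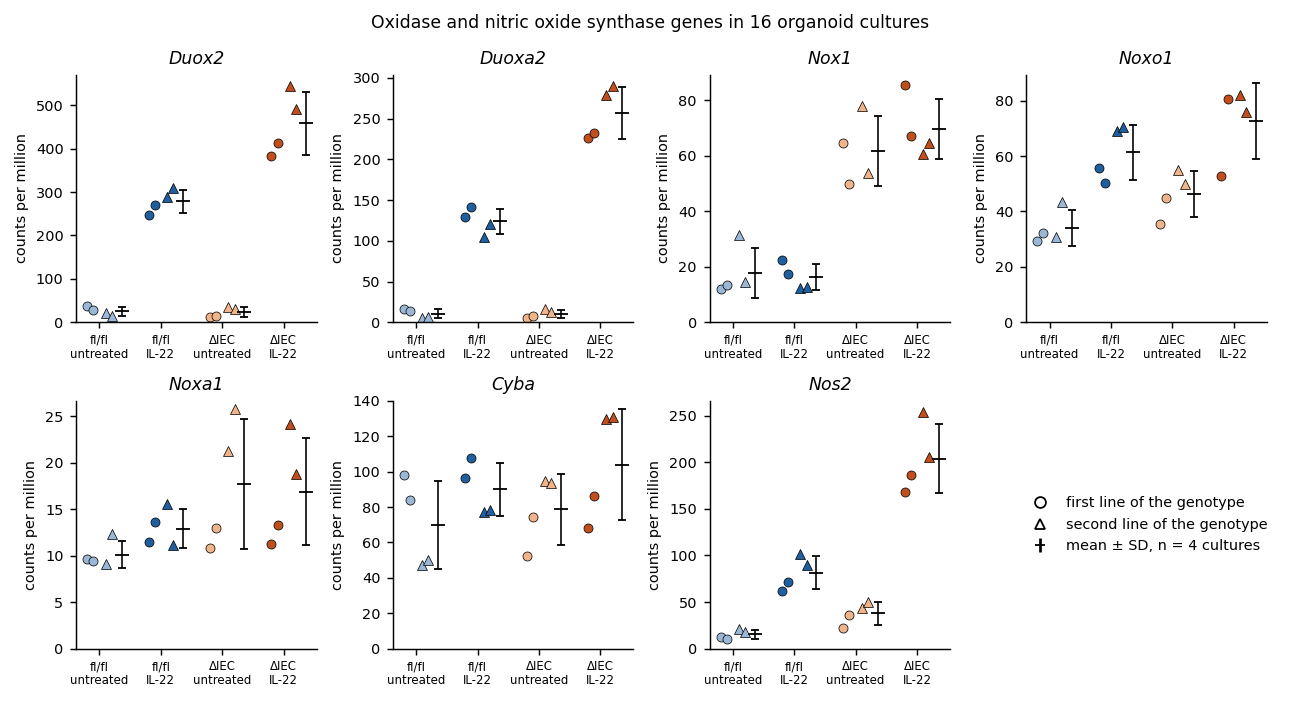
CPM of the 7 genes (vertical axes, each from 0) in the 16 cultures, by group (horizontal axes); circles are cultures of the first organoid line of a genotype, triangles those of the second, and bars the mean ± SD of 4 cultures. Duox2 and Duoxa2 separated by treatment and, among treated cultures only, by genotype. Nox1 separated by genotype, and Nos2 by treatment in both genotypes and by genotype in both treatments.

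For Duox2, the catalytic subunit of the peroxide-producing enzyme, the 4 untreated fl/fl cultures had 38.3, 27.3, 21.8 and 13.6 CPM (replicates 1 to 4) and the IL-22–treated ones 248, 270, 288 and 310 CPM. In ΔIEC organoids the untreated cultures had 12.3, 13.8, 34.6 and 31.2 CPM and the treated ones 384, 412, 544 and 491 CPM. Every treated culture was above every untreated one, and the treated ΔIEC cultures were above the treated fl/fl cultures, whereas the untreated groups overlapped. The log2 fold change with IL-22 was 3.46 (SE 0.26, adjusted p = 6.28e-09) in fl/fl and 4.41 (SE 0.27, adjusted p = 2.41e-10) in ΔIEC organoids. Untreated levels differed between lines of a genotype: the first fl/fl line averaged 32.8 CPM and the second 17.7 CPM, and the first ΔIEC line 13.0 CPM and the second 32.9 CPM.

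Duoxa2, which encodes the factor that carries DUOX2 out of the endoplasmic reticulum, followed Duox2. Its untreated fl/fl cultures had 16.4, 14, 5.44 and 6.15 CPM and the treated ones 129, 142, 105 and 121 CPM. Its untreated ΔIEC cultures had 4.95, 8.12, 16.5 and 12.5 CPM and the treated ones 226, 232, 279 and 290 CPM. As with Duox2, treated and untreated cultures were apart, treated ΔIEC cultures lay above treated fl/fl cultures, and untreated groups overlapped. The log2 fold change with IL-22 was 3.51 (SE 0.25, adjusted p = 3.26e-09) in fl/fl and 4.72 (SE 0.25, adjusted p = 3.53e-11) in ΔIEC organoids. Lowest counts were 12 in untreated fl/fl and 21 in untreated ΔIEC cultures, so the untreated levels carry more counting error than the treated ones. Duoxa2 shares 682 of its 1592 exon bases with the antisense gene Duoxa1, and the sources do not give the strand setting of the counting; without strand, reads of these bases cannot be told apart.

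Per kilobase of exon, a scale that allows genes to be compared, Duoxa2 was 1.75 ± 0.484 times Duox2 in untreated and 1.92 ± 0.364 times in treated fl/fl organoids, and 1.99 ± 0.378 and 2.40 ± 0.156 times in ΔIEC organoids. Exact permutation p-values for the ratio in 4 comparisons were 0.0857 to 0.629 (two-sided; adjusted 0.206 to 0.657 over 12 tests of 3 ratios), where 4 against 4 cultures cannot go below 0.0286, so equal ratios are not shown.

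Nos2, the inducible synthase, was the third gene with a large response to IL-22. Untreated fl/fl cultures had 12.6, 10.2, 20.9 and 17.9 CPM and treated ones 62.2, 72.0, 102 and 89.3 CPM. Untreated ΔIEC cultures had 21.7, 36.2, 43.8 and 50.3 CPM and treated ones 168, 187, 254 and 206 CPM. The 4 groups did not overlap for either comparison within a genotype or within a treatment. The log2 fold change with IL-22 was 2.46 (SE 0.24, adjusted p = 2.73e-07) in fl/fl and 2.47 (SE 0.21, adjusted p = 4.01e-08) in ΔIEC organoids. By line, Nos2 with IL-22 was 5.89 and 4.94 times the untreated level in the fl/fl lines and 6.15 and 4.89 times in the ΔIEC lines.

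Noxo1, the organizer subunit of the NOX1 complex, changed less. Its untreated fl/fl cultures had 29.2, 32.2, 30.8 and 43.6 CPM and the treated ones 55.8, 50.2, 69.1 and 70.4 CPM. Its untreated ΔIEC cultures had 35.4, 45.0, 55.1 and 49.8 CPM and the treated ones 52.7, 80.7, 81.9 and 76.1 CPM. The fl/fl groups were apart, and the ΔIEC groups overlapped through treated replicate 1. The log2 fold change was 0.85 (SE 0.16, adjusted p = 5.39e-04) in fl/fl and 0.68 (SE 0.16, adjusted p = 0.00304) in ΔIEC organoids, where the exact permutation p was 0.0571. The call in ΔIEC organoids was lost, at adjusted p of 0.0102 to 0.0442, without untreated replicate 1 or 2, without treated replicate 2, 3 or 4, or without either ΔIEC line, and the call in fl/fl organoids without the second fl/fl line (log2 fold change 0.78, adjusted p = 0.0155). With cultures of a line summed it was lost in both genotypes (log2 fold changes 0.82 and 0.70, adjusted p = 0.0235 and 0.0430). Noxo1 shares 2122 of its 3013 exon bases with the antisense gene Tbl3, whose log2 fold changes with IL-22 were 0.30 (adjusted p = 0.0334) and 0.26 (adjusted p = 0.0745).

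The other 3 subunit genes of the NOX1 complex gave no call with IL-22 in the fit of group means. Nox1, the catalytic subunit, had a log2 fold change of -0.09 in fl/fl (95% interval -0.67 to 0.49, adjusted p = 0.834) and of 0.17 in ΔIEC organoids (-0.26 to 0.60, adjusted p = 0.567). Noxa1, the activator, had 0.37 (-0.22 to 0.95, adjusted p = 0.322) and 0.01 (-0.53 to 0.56, adjusted p = 0.984). Cyba, which encodes p22phox, had 0.35 (-0.16 to 0.86, adjusted p = 0.276) and 0.43 (-0.08 to 0.94, adjusted p = 0.191). Cyba was called when the organoid line was a block in the fit, with log2 fold changes of 0.40 (adjusted p = 0.00267) in fl/fl and 0.39 (adjusted p = 0.00317) in ΔIEC organoids. It was not called with cultures of a line summed (adjusted p = 0.498 and 0.456) or in limma-voom with line correlation (adjusted p = 0.0612 and 0.0426). Its mean was higher with IL-22 in all 4 lines, by 1.13 and 1.60 times in fl/fl and 1.22 and 1.38 times in ΔIEC lines.

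**Figure D2:**
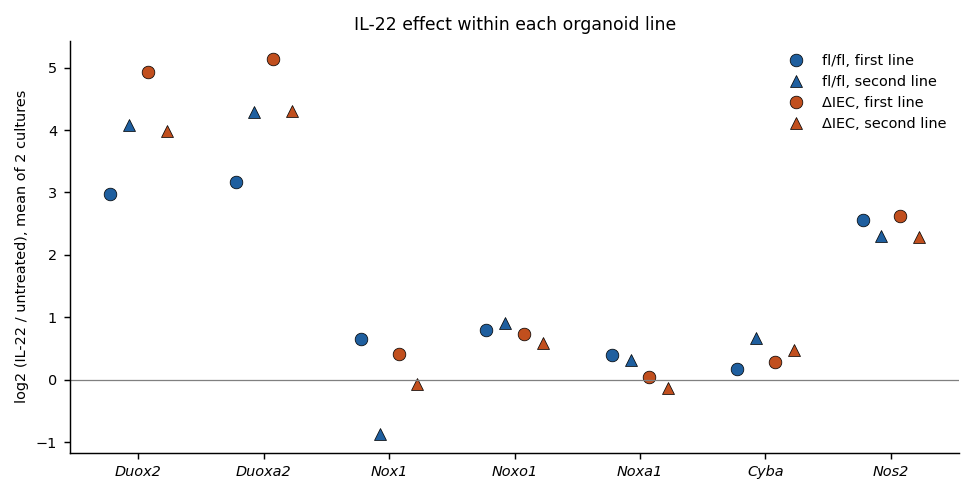
Log2 ratio of the mean of the 2 IL-22–treated cultures to the mean of the 2 untreated cultures (vertical axis) for each gene (horizontal axis) in each of the 4 organoid lines. Duox2, Duoxa2, Nos2, Noxo1 and Cyba were above 0 in every line, whereas Nox1 was at 0.65 and -0.87 in the fl/fl lines and at 0.41 and -0.07 in the ΔIEC lines.

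Cell type markers moved with the treatment. The summed level of 5 enterocyte markers was 2420 to 3050 CPM in untreated and 726 to 1210 CPM in treated fl/fl cultures, and 2510 to 2830 and 866 to 1140 CPM in ΔIEC cultures, with 4 and 3 of the 5 called lower. The summed level of 5 stem cell markers was 384 to 611 CPM untreated and 230 to 267 CPM treated in fl/fl and 909 to 1070 and 355 to 495 CPM in ΔIEC cultures, with 2 and 4 of 5 called lower. Of 5 goblet cell markers, 2 were called higher in fl/fl organoids, although their sum was 1530 to 2410 CPM untreated and 1330 to 2040 CPM treated. In ΔIEC organoids 1 was called higher and 2 lower, and the sum was 1170 to 1590 CPM untreated and 584 to 1100 CPM treated. Of 5 Paneth cell markers, 1 was called higher in each genotype. Their sum was 5550 to 7890 CPM untreated and 6990 to 9360 CPM treated in fl/fl cultures, and 3140 to 4110 and 3860 to 4580 CPM in ΔIEC cultures. Of 7 general epithelial markers, 4 were called higher in fl/fl and 1 in ΔIEC organoids, with sums of 5930 to 7890 CPM untreated and 8850 to 10600 CPM treated in fl/fl cultures. Their part in the changes of the oxidase genes was not tested, and in such bulk samples fewer cells of a type and less RNA per cell cannot be told apart. The 9 immune markers summed to 9.97 to 19.0 CPM over all cultures, and neither of the 2 that were tested was called in any comparison.

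Between genotypes, Nox1 and Nos2 were higher in ΔIEC than in fl/fl organoids whether or not IL-22 was present, and Duoxa2 was higher in ΔIEC organoids with IL-22. The counts were 2 of 7 genes called in untreated and 3 of 7 in treated organoids, all higher in ΔIEC. Among all tested genes, 3.78% were called higher in untreated ΔIEC organoids and 9.91% in treated ones. Groups did not overlap for 2 of the 7 genes in the untreated and for 4 in the treated comparison, beside 23.3% and 29.6% of all tested genes. No gene of the 7 was called lower.

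Nox1 showed the largest difference between genotypes among the 7 genes. The fl/fl cultures had 12, 13.5, 31.3 and 14.4 CPM untreated and 22.6, 17.5, 12.4 and 12.6 CPM with IL-22. The ΔIEC cultures had 64.8, 50, 78.0 and 54.0 CPM untreated and 85.5, 67.3, 60.7 and 64.8 CPM with IL-22. All 8 ΔIEC cultures were above all 8 fl/fl cultures, and the highest fl/fl culture was untreated replicate 3. Nox1 shares 399 of its 3307 exon bases with Cstf2, and Noxa1 50 of 1617 with Entpd8, each on the opposite strand. The difference was 3.65-fold without IL-22 (log2 1.87, SE 0.23, adjusted p = 3.04e-05) and 4.37-fold with it (log2 2.13, SE 0.23, adjusted p = 2.59e-06). With the 2 cultures of each line and treatment summed, which leaves 2 samples per group, the adjusted p was 0.0131 and 0.00433.

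Nos2 was 2.47-fold higher in untreated ΔIEC than in untreated fl/fl organoids (38.0 ± 12.3 against 15.4 ± 4.87 CPM; log2 1.30, SE 0.26, adjusted p = 0.00181) and 2.49-fold higher with IL-22 (204 ± 36.9 against 81.4 ± 17.8 CPM; log2 1.32, SE 0.19, adjusted p = 5.42e-05). The untreated call was lost without fl/fl replicate 2 (log2 1.13, adjusted p = 0.0102), without the second ΔIEC line (0.97, adjusted p = 0.0254) and without the first fl/fl line (0.94, adjusted p = 0.0415), and with cultures of a line summed the adjusted p was 0.0689 untreated and 0.0208 with IL-22. The closest cultures of the 2 genotypes were 21.7 CPM in ΔIEC and 20.9 CPM in fl/fl organoids, both untreated.

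Duoxa2 was 2.07-fold higher in treated ΔIEC than in treated fl/fl organoids (log2 1.05, SE 0.19, adjusted p = 3.45e-04), although with cultures of a line summed the adjusted p was 0.0643. Duox2 had a log2 difference of 0.71 (SE 0.21) at an adjusted p of 0.0141, above the threshold, with treated groups that did not overlap. Without IL-22 the log2 differences were -0.24 for Duox2 (95% interval -0.90 to 0.42) and -0.16 for Duoxa2 (-0.89 to 0.57), with adjusted p-values of 0.620 and 0.777. The Duox2 difference in treated organoids passed the threshold in a fit of the 2 compared groups alone (adjusted p = 6.31e-04), had an adjusted p of 0.191 with cultures of a line summed, and ranged from 0.49 to 0.88 on the log2 scale with 1 culture or line left out.

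Noxo1, Noxa1 and Cyba gave no call between genotypes. The widest of their differences was that of Noxa1 in untreated organoids, 17.7 ± 6.99 CPM in ΔIEC against 10.1 ± 1.48 CPM in fl/fl organoids (log2 0.73, 95% interval 0.15 to 1.32, adjusted p = 0.0581). Noxa1 was higher in the second ΔIEC line than in the first, at 23.5 against 11.9 CPM untreated and 21.5 against 12.3 CPM treated. Without the first ΔIEC line the untreated difference passed the threshold (log2 1.20, adjusted p = 0.00200). Noxo1 had log2 differences of 0.42 (adjusted p = 0.0894) and 0.25 (adjusted p = 0.218) and Cyba of 0.14 (adjusted p = 0.724) and 0.22 (adjusted p = 0.497).

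**Figure D3:**
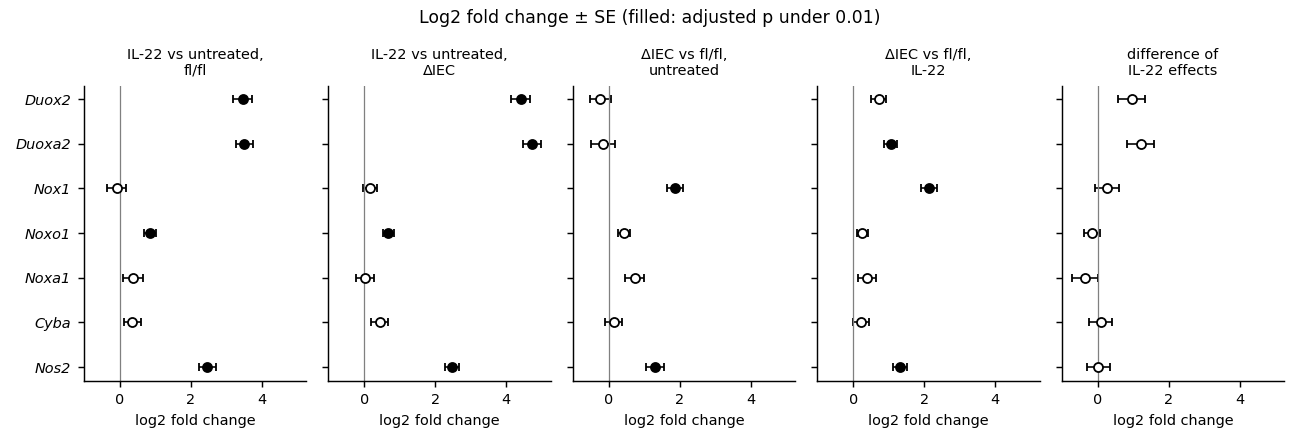
Log2 fold change ± SE (horizontal axes) of the 7 genes (vertical axis) in the 4 comparisons and for the difference of the IL-22 effects, ΔIEC minus fl/fl; filled points had an adjusted p under 0.01. Nox1 was called only between genotypes, Duox2 and Noxo1 only with IL-22, Duoxa2 and Nos2 in both kinds of comparison, Noxa1 and Cyba in none, and no gene for the difference of effects.

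Epithelial cell type markers differed between genotypes beside these genes. The stem cell sum was higher in ΔIEC cultures (909 to 1070 against 384 to 611 CPM untreated, 355 to 495 against 230 to 267 CPM treated), with 3 of 5 markers called higher in each treatment and 1 called lower in treated cultures. The Paneth cell sum was lower, at 3140 to 4110 against 5550 to 7890 CPM untreated and 3860 to 4580 against 6990 to 9360 CPM treated, with 3 and 4 of 5 markers called lower. The goblet cell sum was 1170 to 1590 against 1530 to 2410 CPM untreated and 584 to 1100 against 1330 to 2040 CPM treated, with 2 and 4 of 5 markers called lower. The sum of 4 distal small intestine markers was 15.4 to 25.2 against 23.2 to 49.9 CPM untreated and 11 to 19.6 against 20.6 to 46.7 CPM treated. That of 5 proximal markers was 1540 to 1760 against 1030 to 1840 CPM and 857 to 974 against 715 to 1390 CPM. No tested marker of these 2 regions was called between genotypes. The part of these differences in the results for Nox1, Nos2 and Duoxa2 was not tested.

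Whether IL-22 acted differently in the 2 genotypes was tested as the interaction. None of the 7 genes passed the threshold, as against 0.0159% of all tested genes (2 genes), in edgeR and likewise in DESeq2 and limma-voom. At an unadjusted p under 0.05 there were 2 of the 7 genes and 912 of all tested genes. For Duox2 the IL-22 effect was larger in ΔIEC organoids by 0.95 on the log2 scale (95% interval 0.15 to 1.75, unadjusted p = 0.0180, adjusted p = 0.552) and for Duoxa2 by 1.21 (0.37 to 2.04, unadjusted p = 0.00504, adjusted p = 0.436). With the organoid line as a block the adjusted p was 0.0400 for Duox2 and 0.0138 for Duoxa2. With cultures of a line summed, the unadjusted p of the same test was 0.132 for Duox2 and 0.0653 for Duoxa2. With 1 culture or line left out, the difference ranged from 0.26 to 1.43 for Duox2 and from 0.45 to 1.57 for Duoxa2. By line, treated Duox2 was 7.90 and 16.9 times the untreated level in fl/fl and 30.6 and 15.8 times in ΔIEC organoids, so that the second ΔIEC line was below the second fl/fl line. Treated Duoxa2 was 8.93 and 19.5 times the untreated level in the fl/fl lines and 35 and 19.6 times in the ΔIEC lines. For Nos2 the difference of the IL-22 effects was 0.01 (95% interval -0.69 to 0.71, adjusted p = 0.999).

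Per kilobase of exon, Cyba was the most abundant of the 7 transcripts in untreated organoids, at 67.1 ± 24.1 CPM per kb in fl/fl and 75.8 ± 19.3 CPM per kb in ΔIEC organoids, and its cultures did not overlap with those of the next gene. In untreated fl/fl organoids Noxo1 followed (11.3 CPM per kb), then Duoxa2 (6.59), Noxa1 (6.25), Nox1 (5.38), Duox2 (3.73) and Nos2 (3.49), where each neighbour overlapped with the next. In untreated ΔIEC organoids Nox1 was second (18.7 CPM per kb), ahead of Noxo1 (15.4), Noxa1 (11.0), Nos2 (8.61), Duoxa2 (6.60) and Duox2 (3.39), again with overlap between neighbours. With IL-22 the order in fl/fl organoids was Cyba (86.7), Duoxa2 (78.2), Duox2 (41.2), Noxo1 (20.4), Nos2 (18.4), Noxa1 (7.99) and Nox1 (4.92), and overlap was left only between Cyba and Duoxa2 and between Noxo1 and Nos2. In treated ΔIEC organoids Duoxa2 was first at 161 ± 20.4 CPM per kb, apart from Cyba (100), which overlapped with Duox2 (67.6), and Duox2 with Nos2 (46.3), while Noxo1 (24.2) overlapped with Nox1 (21.0), and Noxa1 (10.5) stood below both.

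**Figure D4:**
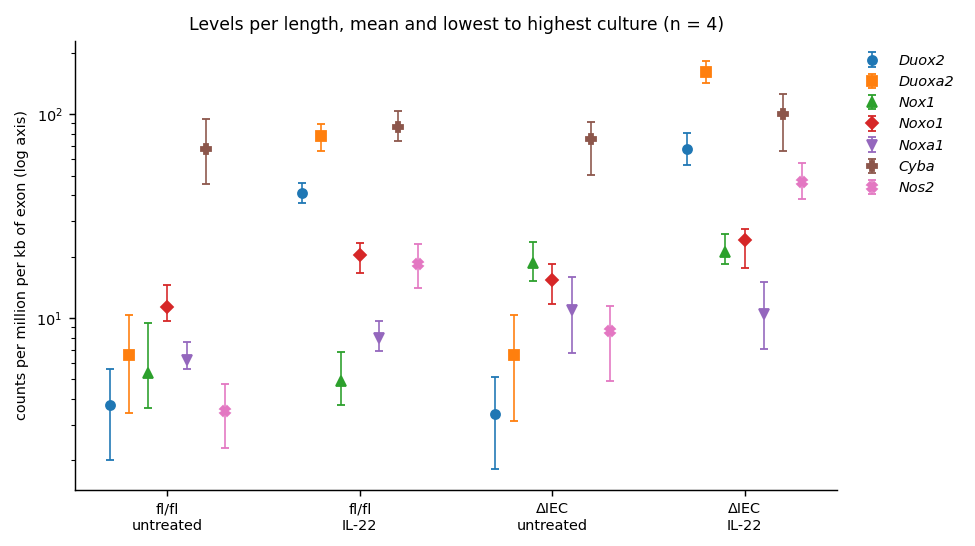
CPM per kilobase of exon (vertical log axis) of the 7 genes in each group (horizontal axis), as the mean with bars from the lowest to the highest of 4 cultures. Duoxa2 and Duox2 held ranks 3 and 6 in untreated and 2 and 3 in treated fl/fl organoids, and ranks 6 and 7 and then 1 and 3 in ΔIEC organoids; Nox1 held ranks 5 and 7 in fl/fl and 2 and 6 in ΔIEC organoids.

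Since NOXO1 and NOXA1 act on NOX1, their transcripts per kilobase were set against Nox1. Noxo1 was 2.42 ± 0.947 times Nox1 in untreated fl/fl and 0.843 ± 0.194 times in untreated ΔIEC organoids, and 4.53 ± 1.85 against 1.19 ± 0.354 times with IL-22. Noxa1 was 1.35 ± 0.523 against 0.602 ± 0.267 times untreated and 1.75 ± 0.635 against 0.521 ± 0.236 times with IL-22. The Noxo1 ratio was lower in ΔIEC cultures without overlap in both treatments and the Noxa1 ratio in treated cultures, each at an exact permutation p of 0.0286, the smallest that 4 against 4 cultures allow (adjusted 0.114 over the 12 tests, so none held up to the adjustment). Nox1, the denominator of both ratios, was higher in every ΔIEC than in every fl/fl culture. The lower ratios therefore restate the Nox1 difference and are not a separate result for Noxo1 or Noxa1. Noxo1 levels per kilobase were taken over all 3013 exon bases, of which Tbl3 overlaps 2122. If strand was not used in counting, reads there could have been counted for neither gene. This would put Noxo1's levels, ratios and place in the order too low, by an amount that was not tested. The same limit holds for Duoxa2, which shares 682 of its 1592 exon bases with Duoxa1. It bears on Duoxa2's levels per kilobase, its ratio to Duox2 and its place in the order.

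The genes whose log2 CPM was most like that of each member over the 16 cultures were listed by Pearson's r, as a description; the cultures share groups and lines. Duox2 and Duoxa2 were most like each other (r = 0.991). Ly6a (0.991) and Plscr1 (0.987) followed for Duoxa2, and Rnh1 (0.983) and Fut2 (0.982) for Duox2. For Nos2 the closest genes were Prss32 (0.983), Adar (0.964) and Tnfrsf1b (0.959), and for Nox1 they were Eif3b (0.972), Cd9 (0.960) and Psmd13 (0.957). Noxo1 was closest to Gm15947 (0.933), Pck2 (0.930) and Akt1 (0.922), Cyba to Tshz2 (0.936), Il1rn (0.930) and Ctnnb1 (0.923), and Noxa1 to Rnps1 (0.904), Zyx (0.801) and Mt1 (0.762). The values of Zyx and Mt1 were the lowest in the list.

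Of 40 other genes listed for these pathways, 26 were tested, and the remaining 14 were too low. IL-22 raised 4 and lowered 6 of the 26 in fl/fl organoids and raised 5 and lowered 4 in ΔIEC organoids. Their median log2 fold change was -0.10 and 0.01, beside -0.05 and -0.01 over all tested genes, and 20.8% and 17.5% of all tested genes were called in either direction. Between genotypes, 0 were higher and 2 lower in untreated ΔIEC organoids, and 3 higher and 2 lower in treated ones, beside 9.76% and 19.8% of all tested genes called. None was called for the interaction, in edgeR and likewise in DESeq2 and limma-voom, and 4 of the 26 had an unadjusted p under 0.05 in edgeR.

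Among the other oxidase genes, Duoxa1, the maturation factor paired with Duox1, rose with IL-22 from 4.29 ± 1.95 to 37.5 ± 4.76 CPM in fl/fl organoids (8.87-fold, adjusted p = 1.07e-07) and from 2.78 ± 2.29 to 81.9 ± 4.80 CPM in ΔIEC organoids (adjusted p = 1.71e-10). Untreated ΔIEC cultures had 1 to 12 Duoxa1 counts, too few for a fold change, and treated ones 196 to 291. Duox1 itself had at most 2 counts in any culture. Duoxa1 was 2.20-fold higher in treated ΔIEC than in treated fl/fl organoids (adjusted p = 2.44e-04), and its IL-22 effect differed between genotypes by 1.97 on the log2 scale (SE 0.51) at an unadjusted p of 0.00102 and an adjusted p of 0.285, a value that rests on the same low counts. Its values carry the shared exon bases with Duoxa2 given above. Rac1, the GTPase that activates NOX1, rose 1.30-fold in fl/fl (adjusted p = 1.43e-04) and 1.41-fold in ΔIEC organoids (adjusted p = 6.73e-06). Rac1 shares 2309 of its 4496 exon bases with Daglb on the opposite strand, so the limit of the unknown strand setting applies here too. The phagocyte oxidase genes Cybb (NOX2), Ncf4 and Ncf1 had at most 1, 3 and 5 counts in any culture. Nox3 had 0 counts in all cultures.

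On the nitric oxide side, the genes for cofactor and substrate moved in both directions. Gch1, the first enzyme of tetrahydrobiopterin synthesis, rose 1.71-fold in fl/fl (adjusted p = 0.00715) and 1.82-fold in ΔIEC organoids (adjusted p = 0.00495), whereas Qdpr, which regenerates the cofactor, fell from 170 ± 15.6 to 119 ± 8.33 CPM and from 145 ± 8.05 to 92.6 ± 4.74 CPM (adjusted p = 4.13e-05 and 5.15e-06). The arginine transporter Slc7a1 rose 1.32-fold (adjusted p = 1.47e-04) and 1.22-fold (adjusted p = 0.00324). Arg2, an arginase that uses the same substrate as NOS2, fell from 39.3 ± 3.89 to 12.9 ± 3.66 CPM in fl/fl (adjusted p = 0.00115) and from 34.3 ± 16 to 9.30 ± 7.02 CPM in ΔIEC organoids (adjusted p = 4.67e-04). The transporter Slc7a2 also fell, from 6 to 20 counts to 4 to 10 counts per culture in fl/fl (adjusted p = 0.00990) and from 5 to 21 counts to 1 to 3 counts in ΔIEC organoids (adjusted p = 1.48e-04), too few for a fold change. Pts, another enzyme of cofactor synthesis, was lower in untreated ΔIEC than fl/fl organoids (33.2 ± 2.07 against 47.9 ± 7.47 CPM, adjusted p = 0.00857), and Qdpr was lower in treated ΔIEC organoids (adjusted p = 0.00234). Each had a difference of the same sign, without a call, in the other treatment. The log2 difference was -0.29 for Pts with IL-22 (adjusted p = 0.0912) and -0.24 for Qdpr untreated (adjusted p = 0.0371). Arg2 shares 285 and 116 of its 1428 exon bases with other genes on the opposite strand, Qdpr 332 of 1788 and Slc7a2 635 of 9135. The limit of the unknown strand setting applies to these genes too. No pathway gene was called between untreated genotypes without any 1 of the 4 untreated ΔIEC cultures, without the second ΔIEC line, in limma-voom or in a fit of the 2 compared groups alone, and none between genotypes in either treatment with cultures of a line summed.

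Of the enzymes that remove superoxide and peroxide, Cat, which encodes catalase, fell with IL-22 from 138 ± 14.1 to 62.7 ± 3.21 CPM in fl/fl (adjusted p = 1.51e-06) and from 132 ± 23.4 to 55.6 ± 10.7 CPM in ΔIEC organoids (adjusted p = 4.87e-07). The cytosolic superoxide dismutase Sod1 fell from 322 ± 9.63 to 227 ± 20.9 CPM in fl/fl organoids (adjusted p = 2.25e-05), and in ΔIEC organoids, with 351 ± 8 and 294 ± 18.4 CPM, it narrowly missed the threshold (adjusted p = 0.0106). The peroxiredoxin Prdx4 fell in fl/fl organoids (31.3 ± 3.74 to 21.2 ± 2.51 CPM, adjusted p = 0.00370). In ΔIEC organoids its log2 fold change was -0.30, without a call (adjusted p = 0.0917). Prdx6 rose in ΔIEC organoids from 400 ± 11.7 to 501 ± 21.4 CPM (adjusted p = 6.99e-04) and was lower in untreated ΔIEC than fl/fl organoids (adjusted p = 0.00604). Without a call, its log2 fold change with IL-22 in fl/fl organoids was 0.18 (adjusted p = 0.0322). Between treated genotypes it was -0.13 (adjusted p = 0.125). With IL-22, Sod1 and Prdx4 were higher and the mitochondrial Sod2 lower in ΔIEC than in fl/fl organoids (adjusted p = 6.26e-04, 0.00821 and 0.00813). Without IL-22 the log2 differences had the same signs but no call. They were 0.12 for Sod1, 0.25 for Prdx4 and -0.30 for Sod2 (adjusted p = 0.226, 0.179 and 0.0156). The peroxidases Mpo, Epx and Lpo, which use hydrogen peroxide, had at most 3 counts in any culture.

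**Figure D5:**
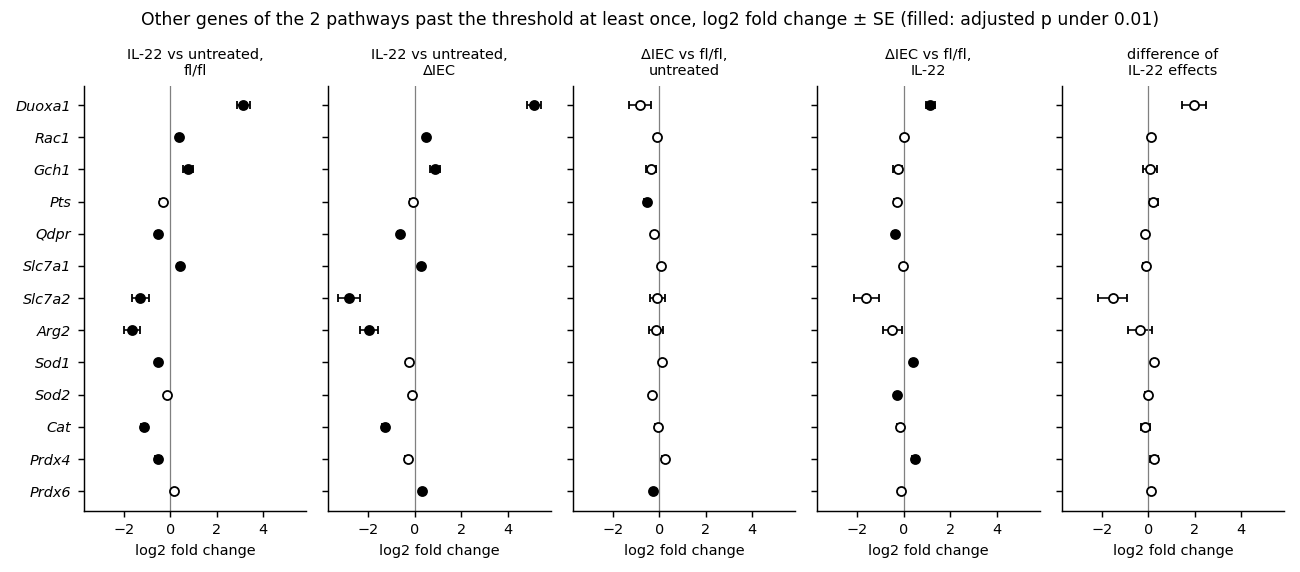
Log2 fold change ± SE (horizontal axes) of the 13 other pathway genes that passed the threshold in at least 1 comparison (vertical axis), in the same comparisons as for the 7 genes; filled points had an adjusted p under 0.01. Duoxa1 and Gch1 rose and Arg2 and Cat fell with IL-22 in both genotypes. Slc7a2 had at most 21 counts in any culture, and Duoxa1 had 1 to 12 in untreated ΔIEC cultures. The size of the fold changes that rest on these counts is uncertain.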

How the data were processed

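RNA of the 16 cultures was sequenced in paired-end reads. The authors trimmed the reads with cutadapt, used TopHat2 to align them to mm10 (GRCm38) and HTSeq to count those on each gene; they deposited raw counts, not normalized. As library kit, the labels give TruSeq RNA v2 and the study's methods a stranded protocol; the strand setting of the counting is not given in the sources used here. Lines of the table that hold reads on no gene, on several genes (0.74% to 1.13%) or on several places were left out, and 36.3% to 38.3% of the table's reads were on genes.

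Groups were taken from the sample labels. Genes were tested in R 4.3.3 with edgeR 4.0.16: filterByExpr for the 4 groups (minimum count 10, minimum total 15), TMM scaling, and quasi-likelihood tests on a single fit of 4 group means, two-sided, with Benjamini-Hochberg adjustment over 12559 genes. The study's own tool, DESeq2 1.42.0, was an alternative, as was limma 3.58.1. SE was the absolute log2 fold change over the square root of F, or, below 0.05, was taken from the other contrasts of the same fit, and 95% intervals used 12 degrees of freedom. CPM were computed on tested genes, log2 CPM with a prior count of 2, and values per kilobase with the exon union of GENCODE M21. The file's version numbers differ from M21 for Duox2 and Noxo1. Groups of 4 were also compared by exact permutation tests, two-sided. The text names the 7 genes, pathway genes past the threshold, the 3 genes most correlated with each member, and Atg16l1; Tbl3, Duox1 and the genes at or near 0 were named for overlap or absence after their values were seen, and the 3 ratios between members were likewise chosen with values known.

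The members and lists were chosen with earlier results of these data known. Lines pair the cultures of a genotype: across genes, deviations from group means correlated at 0.26 to 0.44 within fl/fl lines and 0.06 to 0.32 within ΔIEC lines, and at -0.43 to -0.22 and -0.35 to -0.08 between lines. No replicate pair agreed within sampling noise (chi-square per gene 1.35 to 11.6). The steps were tested on simulated data. Alternatives were RLE scaling, DESeq2, no filter, at least 10 counts in every culture, fits of the compared groups only, summed cultures of a line, the line as a block, limma-voom with line correlation (0.261), an adjusted p under 0.05, and leaving out each culture or line. Some listed genes are not reported here by name.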

Additional observations from a re-analysis of the deposited data

Results flagged for a closer look

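Of 28 sets of 4 cultures (7 genes in 4 groups), 1 held a culture far from the others: Nox1 in untreated fl/fl replicate 3, at 31.3 CPM, where the other 3 cultures had 12 to 14.4 CPM. The gap to the nearest culture was 0.872 of the group's range, above the limit of Dixon's test for 4 samples, and chance marks about 1 in 20 such sets. The culture is from the second fl/fl line and has the fewest counts on genes of all 16, 2135000. Without it the IL-22 effect on Nox1 in fl/fl organoids was 0.24 on the log2 scale in place of -0.09, and it passed the threshold in neither case.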

How the results depend on the processing

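The cultures came from 2 lines per genotype, so the comparisons of genotype rest on 2 lines each, and fits on summed cultures had 2 samples per group. With cultures of a line summed, 3 of the 7 genes were called with IL-22 in each genotype, with Noxo1 lost in both, 0 were called between untreated genotypes and 1 (Nox1) between treated ones, while pathway calls were 2 and 5 with IL-22 in fl/fl and ΔIEC organoids and 0 and 0 between untreated and treated genotypes. Without a filter, where edgeR gave all genes a common spread (an infinite prior, against 7.55 degrees of freedom), 4 of the 7 genes were called between untreated genotypes and 2 for the interaction, and 1 and 1 pathway genes. An adjusted p under 0.05 gave 4 and 9 pathway genes between untreated and treated genotypes, a fit of only the compared groups 0 and 3, and limma-voom 0 and 3. The line as a block (paired fit) gave 5 of the 7 genes with IL-22 in each genotype, with Cyba added, which was not called with summed cultures, 11 and 11 pathway genes, and 0 and 0 for the interaction.

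Leaving out 1 culture or line gave 3 to 4 of the 7 genes with IL-22 in each genotype, 1 to 3 between untreated and 3 to 4 between treated genotypes and 0 for the interaction; pathway calls were 6 to 10, 5 to 10, 0 to 5, 2 to 5 and 0. Signs turned for effects that passed no threshold, and not all of these were near 0. Noxa1 between treated genotypes went from 0.38 to -0.10 without the second ΔIEC line. Nox1 for the interaction went from 0.26 to -0.44 without the second fl/fl line. Duox2 between untreated genotypes went from -0.24 to 0.37 without the first ΔIEC line. With IL-22 in ΔIEC organoids Noxa1 was at -0.03 in DESeq2, -0.01 with summed cultures, -0.05 with the block and -0.21 to 0.23 when cultures or lines were left out. For the interaction, Nos2 was at -0.01 with RLE scaling and with summed cultures and at -0.20 to 0.18 with cultures or lines left out, and Cyba at 0.00 with the block and at -0.26 to 0.25; Nox1 ranged from -0.44 to 0.92. The ranges with 1 culture or line left out were -0.75 to 0.62 and -0.07 to 0.37 for Nox1 with IL-22 in fl/fl and ΔIEC organoids, -0.93 to 0.37, -0.71 to 0.72 and -0.23 to 0.66 for Duox2, Duoxa2 and Cyba between untreated genotypes, and -0.10 to 0.70 and -0.23 to 0.53 for Noxa1 and Cyba between treated genotypes. Of the 35 effects of single genes, 11 kept their sign and side of the threshold under all alternatives run. The cause of these changes was not tested.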
